A study of Homo sapiens with 6 samples.

Results

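The genes described here encode the cullin-RING ubiquitin ligases that targeted protein degraders most often borrow. They were chosen by name: VHL, ELOB, ELOC, CUL2, RBX1, CRBN, DDB1, CUL4A, CUL4B and CAND1. All 10 had a row in the deposited table of 20333 gene intervals, and all 10 passed the filter on low counts that left 19902 genes for testing. The assay was PRO-seq, a nuclear run-on method in which RNA polymerases already engaged on a gene extend their transcripts in permeabilised cells. A value therefore reports polymerase activity on the gene, not the amount of its mature RNA or protein.

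T47D cells were used, an established line of luminal breast cancer, estrogen receptor positive and HER2 negative. They were grown in growth factor-complete medium. One arm received the solvent DMSO for 5 h. Another received 500 nM GDC0068, a catalytic inhibitor of the AKT kinases, for 5 h. The arm labelled Degrader received 100 nM INY-05-040, an AKT degrader, for 5 h. The doses differ because they were set to give comparable suppression of downstream signalling. Every arm holds 2 libraries, and the series describes 2 independent experiments. The labels name no genetic change in the cells and do not say more on how the cultures were kept apart, so p-values measure the spread between these libraries. Which ubiquitin ligase INY-05-040 recruits is not given in the sources used here.

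Cullin-RING ligases are built from exchangeable parts. A cullin scaffold holds the RING subunit RBX1, which docks the ubiquitin-conjugating enzyme, at one end and an adaptor with a substrate receptor at the other. VHL, the receptor that marks hydroxylated HIF proteins for destruction in normal oxygen, sits on the adaptor pair ELOB and ELOC and the scaffold CUL2. CRBN, the receptor that binds thalidomide and its relatives, sits on the adaptor DDB1 and on either of the paralogous scaffolds CUL4A and CUL4B. CAND1 exchanges receptor modules on cullins that do not carry the ubiquitin-like protein NEDD8. A bifunctional degrader places its target beside a receptor such as VHL or CRBN, so the ligase subunits are part of the machinery on which the drug class depends.

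Total counts per library ranged from 25371819 to 32192576. The 10 genes together took 0.0623% to 0.0643% of a library. The lowest count of any of them in any library was 697, for CUL4B in DMSO replicate 2. Replicates of an arm differed by more than sampling noise (chi-square per degree of freedom 5.03 to 6.98). Of 9 luminal epithelial markers all were in the table. Of these 8 had a level of at least 10 CPM (the count scaled to library size, as edgeR computes it), among them GATA3 at 1370 CPM and ESR1 at 1125 CPM. Their summed level was 5334 to 5665 CPM in DMSO, 5466 to 5731 CPM under GDC0068 and 5708 to 5745 CPM under Degrader. Of 5 basal markers 2 had a row, ACTA2 at 4.24 CPM and MYLK at 35.0 CPM. The 1 of 5 leukocyte markers with a row was CD68, at 68.4 CPM. The summed basal level was 38.3 to 42.2 CPM in DMSO, 34.7 to 40.2 CPM under GDC0068 and 38.2 to 41.7 CPM under Degrader. The leukocyte level, that of CD68 alone, was 77.2 to 83.6, 62.6 to 67.6 and 55.1 to 64.4 CPM in the same order, and its part in any result was not tested. No row was found for the 5 fibroblast and 4 endothelial markers.

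Promoter sequences are shown for the 2 genes that rose under Degrader, CRBN and CUL4B, and for CUL4A, the paralogue of CUL4B, so that their start regions can be read side by side. They are RefSeq sequences of the assembly GRCh38.p14. The submitters' processing notes name hg38 and GRCh38 among the builds. Each stretch holds 150 bases, 5′ to 3′, on the strand of the gene. Capitals mark the letters of a motif match on either strand. The SP/KLF box was searched as GGGCGG, and its matches can overlap each other. The CCAAT box was searched by the letters of its name. The FOXO core was searched as GTAAACA.
CRBN, chr3:3179691-3179840, minus strand: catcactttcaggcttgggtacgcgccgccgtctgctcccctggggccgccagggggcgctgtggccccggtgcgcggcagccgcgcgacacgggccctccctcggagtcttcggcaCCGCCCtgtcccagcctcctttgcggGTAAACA
CUL4B, chrX:120561454-120561603, minus strand: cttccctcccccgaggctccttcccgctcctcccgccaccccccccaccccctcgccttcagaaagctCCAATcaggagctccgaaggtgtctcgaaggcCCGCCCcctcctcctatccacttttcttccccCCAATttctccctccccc
CUL4A, chr13:113209463-113209612, plus strand: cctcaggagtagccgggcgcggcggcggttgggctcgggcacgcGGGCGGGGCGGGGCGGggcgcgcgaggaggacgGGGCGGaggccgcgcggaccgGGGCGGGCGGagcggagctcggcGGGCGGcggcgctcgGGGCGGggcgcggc

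The 3 stretches differ in these letters. That of CUL4A held 8 SP/KLF boxes, and those of CUL4B and CRBN 1 each. CUL4B had 2 CCAAT boxes in its stretch, and the others had none. The stretches of CUL4B and CUL4A end just before a RefSeq start. That of CRBN was instead cut to end with its FOXO core, so this match was fixed by the choice of stretch. The last base of the core is the start site given in the deposited table. The final 27 bases of the CRBN stretch lie past the earlier of its RefSeq starts. The deposited start of CUL4B lay 84 bp downstream of the nearest RefSeq start, and that of CUL4A 15 bp downstream.

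Over windows from 250 bases before to 50 after a start, 8 of the 10 genes had an entry, and where a gene had several the one nearest the deposited start was used. VHL and ELOC were the others. An SP/KLF box was present in all 8 windows, against 45.0% of 35116 windows in all. The FOXO core was in the window of CRBN, against 3.42% of all windows. A CCAAT box was in that of CUL4B, against 34.6%. The core letters of an NRF1 site, TGCGCA, were found in RBX1 and CRBN, against 8.24% of all windows. The ETS core CCGGAA was in CUL4A (17.2% of all windows). The CRE core TGACG was in CUL4B (24.6% of all windows), and the E-box CACGTG in RBX1 (7.26%). The YY1 motif AAGATGGCG was in 0 of the 8 windows and in 1.75% of all windows. Every motif was searched on both strands. These matches describe letters only and say nothing of binding.

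Before drug effects, the levels of the genes in DMSO were compared per kilobase (kb) of counted interval, because intervals differ in length. ELOB stood highest at 7.24 ± 0.30 CPM per kb (SD, n = 2, as throughout). VHL followed at 4.09 ± 0.020, DDB1 at 3.62 ± 0.0034, RBX1 at 3.08 ± 0.0069, CUL4A at 2.76 ± 0.056 and ELOC at 2.72 ± 0.030 CPM per kb. CAND1 gave 2.00 ± 0.066, CRBN 1.40 ± 0.0032, CUL2 0.746 ± 0.021 and CUL4B 0.669 ± 0.039 CPM per kb. CUL4A and ELOC were the only neighbours in this order whose DMSO libraries overlapped. ELOB thus stood above 88.1% of the genes tested and CUL4B above 22.9%. Each receptor was placed differently from its scaffold: per kb VHL lay well above CUL2, whereas CRBN lay above CUL4B and below CUL4A. Without division by length VHL lay below CUL2 in DMSO (42.1 against 61.0 CPM), their intervals being 10303 and 81772 bp long. CRBN (41.4 CPM) still lay between CUL4B (24.6 CPM) and CUL4A (56.7 CPM). The part of interval length in the order per kb was not tested.

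These levels depend on the intervals. The CUL4A interval (ENSG00000139842, chromosome 13, 113209628 to 113230212, plus strand) covers 34.9% of the RefSeq gene, and that of CUL2 (ENSG00000108094, chromosome 10, 35008551 to 35090322, minus strand) covers 69.0%. The CUL4B interval (ENSG00000158290, chromosome X, 120524612 to 120561369, minus strand) covers 71.1%. For the other 7 genes the share was 86.7% to 100%. Whether the authors counted exons, introns or both within an interval is not given in the sources used here.

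**Figure D1:**
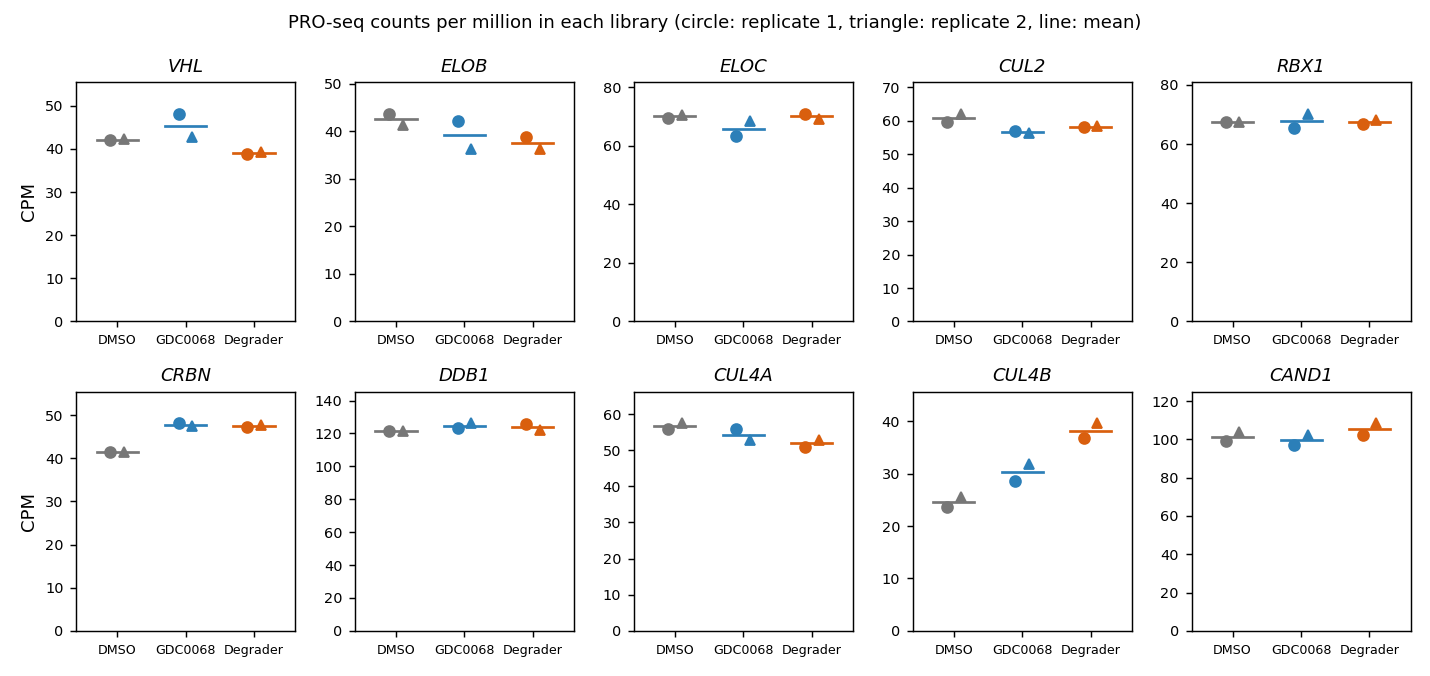
Level in CPM (y axis, from 0) for each of the 10 genes in the DMSO, GDC0068 and Degrader libraries, with a circle for replicate 1, a triangle for replicate 2 and a line for the arm mean. CUL4B climbs from 23.6 and 25.6 CPM in DMSO to 36.8 and 39.7 CPM under Degrader, while RBX1 stays between 65.3 and 70.3 CPM in all 6 libraries.

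Whether transcription of the ligase genes changed under the AKT degrader was asked by setting Degrader against DMSO. CUL4B and CRBN were called as higher, none of the 10 was called as lower, and the other 8 did not pass the test. In that test 4 of the 10 had an unadjusted p under 0.05. Besides CUL4B and CRBN these were ELOB and CUL4A, with log2 fold changes of -0.18 and -0.13. By edgeR p CUL4A ranked 5739 among the 19902 genes tested, so at least that many had an unadjusted p under 0.05. The 2 of 10 called by edgeR (threshold 0.05 on the adjusted p) compare with 15.3% of all genes tested (7.39% called as higher and 7.88% as lower), so the share called was close to the background. CUL4B changed by more than any other of the 10, and its log2 fold change was above that of 98.5% of all genes tested. With the replicate number as a block, edgeR called 3 of the 10 against 30.7% of all genes (15.1% higher and 15.7% lower), and the gene added was ELOB.

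CUL4B is one of the scaffolds on which DDB1 and CRBN assemble. It stood at 23.6 and 25.6 CPM in the DMSO libraries, at 28.6 and 31.9 CPM under GDC0068 and at 36.8 and 39.7 CPM under Degrader. The 3 arms did not overlap: both Degrader libraries were above both GDC0068 libraries, and these were above both DMSO libraries. Against DMSO, the Degrader log2 fold change was 0.64 (SE 0.083, edgeR adjusted p = 7.37e-04), a 1.56-fold rise. The change was 0.64 in the first experiment and 0.63 in the second. CUL4B was called in all 14 alternative analyses, DESeq2 and limma voom included, with log2 fold changes from 0.57 to 0.70 and adjusted p up to 0.0155.

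CRBN (ENSG00000113851, chromosome 3, 3150011 to 3179691, minus strand) is a receptor of CUL4 ligases. It gave 41.5 and 41.4 CPM in DMSO, 48.2 and 47.4 CPM under GDC0068 and 47.3 and 47.8 CPM under Degrader. All 4 drug libraries lay above both DMSO libraries, and the libraries of the drugs overlapped. The Degrader log2 fold change was 0.20 (SE 0.057, edgeR adjusted p = 0.0355), a rise of 14.8%, and it was 0.19 and 0.21 in the experiments taken alone. The size barely moved between analyses (0.18 to 0.20), but the call was lost with DESeq2 (adjusted p = 0.116). In edgeR it was lost without DMSO replicate 1 (adjusted p = 0.164), DMSO replicate 2 (0.120), Degrader replicate 1 (0.116) or Degrader replicate 2 (0.192).

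A low-level interval on the opposite strand, AC024060.2 at 2.21 CPM, overlaps CRBN by 1075 bp. Its own log2 fold change under Degrader was -0.26 (edgeR adjusted p = 0.555). No interval overlapped CUL4B or started within 1000 bp of it on the opposite strand. The divergent neighbour of CUL4A, PCID2, starts 136 bp away and gave -0.04 under Degrader (edgeR adjusted p = 0.716).

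CUL4A, which can take the place of CUL4B under DDB1, was not called. It stood at 55.9 and 57.6 CPM in DMSO, 55.8 and 52.7 CPM under GDC0068 and 50.9 and 52.9 CPM under Degrader. Both Degrader libraries were below both DMSO libraries, with a log2 fold change of -0.13 that did not pass (SE 0.057, edgeR adjusted p = 0.159). The CUL4B share of the counts of both genes was 29.7% and 30.8% in DMSO, 33.9% and 37.7% under GDC0068, and it reached 41.9% and 42.9% under Degrader. The counted stretches are 36758 bp for CUL4B and 20585 bp for CUL4A, so this share does not give the relative transcription of the paralogues. Exact 95% binomial intervals, which cover counting error only, ran from 27.9% to 32.7% in DMSO and from 40.0% to 44.8% under Degrader. The difference between the changes of the paralogues was not tested by itself.

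**Figure D2:**
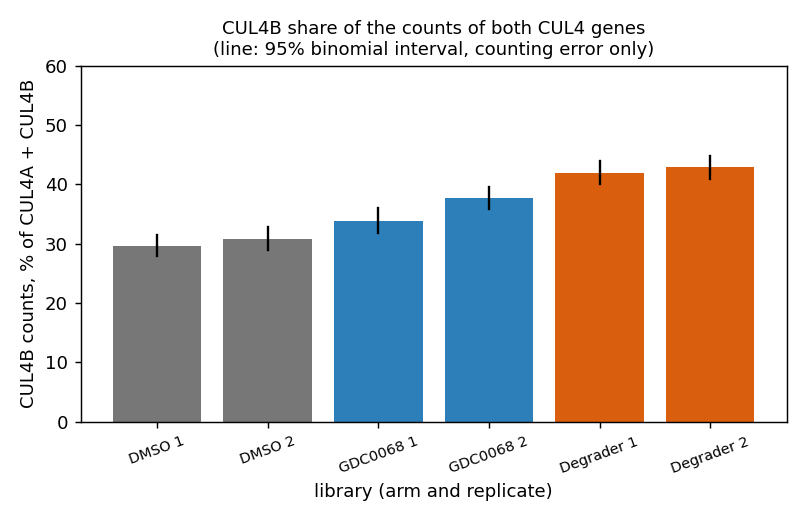
CUL4B counts as a percentage of CUL4A plus CUL4B counts (y axis) in each of the 6 libraries (x axis), with lines for the exact 95% binomial interval, which covers counting error only. The bars stand near 30% in DMSO (29.7% and 30.8%) and at 41.9% and 42.9% under Degrader, with GDC0068 between them. Counts were not divided by the length counted, which differs between the genes.

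The VHL side of the machinery held no gene called under Degrader in the fit without the block. VHL itself (ENSG00000134086, chromosome 3, 10141780 to 10152082, plus strand) had 42.0 and 42.3 CPM in DMSO, 48.2 and 42.7 CPM under GDC0068 and 38.8 and 39.2 CPM under Degrader. The Degrader libraries were the lowest and did not overlap those of DMSO. The log2 fold change was -0.11 in each experiment and did not pass (95% interval -0.26 to 0.04, edgeR adjusted p = 0.316).

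ELOB (ENSG00000103363, chromosome 16, 2771414 to 2777280, minus strand), the ubiquitin-like adaptor that pairs with ELOC, gave 43.7 and 41.3 CPM in DMSO, 42.2 and 36.3 CPM under GDC0068 and 38.8 and 36.3 CPM under Degrader. The Degrader libraries lay below those of DMSO, and the GDC0068 libraries spanned the gap. Its log2 fold change under Degrader was -0.18 (SE 0.078, edgeR adjusted p = 0.150), and the replicate block made it a call, at an edgeR adjusted p of 0.0206. Its divergent neighbour AC092117.1, which starts 108 bp away, gave -0.0027 (edgeR adjusted p = 0.982).

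ELOC, the adaptor that contacts the cullin, had 69.6 and 70.7 CPM in DMSO, 63.3 and 68.5 CPM under GDC0068 and 71.1 and 69.4 CPM under Degrader, so DMSO and Degrader overlapped and GDC0068 was lowest. The scaffold CUL2 had 59.8 and 62.2 CPM in DMSO, 57.1 and 56.4 CPM under GDC0068 and 58.0 and 58.5 CPM under Degrader. The 3 arms did not overlap, DMSO being highest, and the change of -0.06 on the log2 scale did not pass (edgeR adjusted p = 0.456). RBX1, the RING subunit shared by both ligases, had 67.4 and 67.6 CPM in DMSO, 65.3 and 70.3 CPM under GDC0068 and 66.7 and 68.2 CPM under Degrader. Its log2 fold change lay near 0, with a 95% interval from -0.12 to 0.12.

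DDB1, the adaptor between CRBN and the CUL4 scaffolds, had 122 CPM in each DMSO library, 123 and 126 CPM under GDC0068 and 126 and 122 CPM under Degrader. All 4 drug libraries lay above DMSO, the lowest of them by less than 1 CPM. Its log2 fold change of 0.03 had a 95% interval from -0.08 to 0.13. It had the highest counts of the 10. Its divergent neighbour TKFC, which starts 142 bp away, gave -0.10 (edgeR adjusted p = 0.191, and 0.0356 with the replicate block). CAND1 (chromosome 12, 67269358 to 67319953, plus strand), the exchange factor, had 98.9 and 104 CPM in DMSO, 96.9 and 103 CPM under GDC0068 and 102 and 109 CPM under Degrader, and the arms overlapped.

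The median log2 fold change under Degrader was 0.03 over the 5 subunits of the CRBN ligase, -0.06 over the 5 of the VHL ligase, RBX1 counted in both, and -0.0014 over all genes tested. Of the 10 genes, 7 had Degrader libraries that did not overlap those of DMSO, against 58.6% of all genes. These were 3 higher (29.3% of all genes) and 4 lower (29.2%). These counts do not set the genes apart from the rest of the genome.

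**Figure D3:**
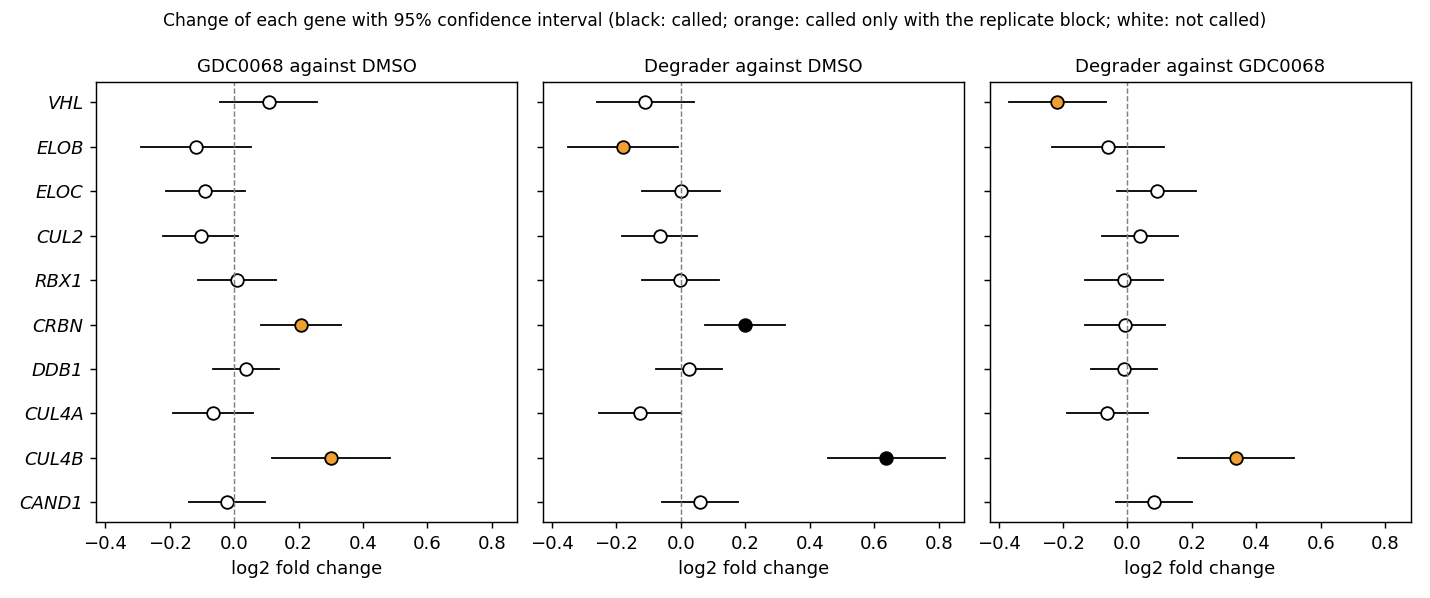
Log2 fold change of each gene (x axis) with its 95% confidence interval in the 3 contrasts; black points passed edgeR's test, orange points were called only with the replicate block, and white points were not called. CUL4B has the highest value in all 3 panels (0.30, 0.64 and 0.34), and CRBN lies to the right of 0 in both contrasts with DMSO.

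The catalytic inhibitor of AKT was then set against the same DMSO libraries. Under GDC0068, edgeR called none of the 10 genes, against 3.58% of all genes (1.70% higher and 1.88% lower). At an unadjusted p under 0.05 there were 2, CRBN and CUL4B, and neither DESeq2 nor limma voom called any. They ranked 1024 and 1109 by edgeR p among the 19902 genes tested. The share of all genes at that unadjusted level is not given here. With the replicate block, edgeR called these 2 as rises, against 17.8% of all genes in that fit (8.87% higher and 8.91% lower). Of the 10 genes, 7 had GDC0068 libraries apart from those of DMSO, against 50.1% of all genes. These were 4 higher (26.1%) and 3 lower (24.0%).

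CUL4B had a log2 fold change of 0.30 under GDC0068 (SE 0.084, edgeR adjusted p = 0.0723; 0.00270 with the replicate block), with 0.28 and 0.32 in the experiments. CRBN had 0.21 (SE 0.057, edgeR adjusted p = 0.0680; 0.00703 with the block), with 0.22 and 0.20. Because the contrasts share the DMSO libraries, a deviation of these libraries would enter both in the same direction. The remaining log2 fold changes under GDC0068 ran from -0.12 for ELOB to 0.11 for VHL. Both of these values rested on 1 library. VHL was at 0.20 in the first experiment and 0.01 in the second, and at 0.02 without GDC0068 replicate 1. ELOB was at -0.05 in the first and -0.18 in the second, and at -0.02 without GDC0068 replicate 2.

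**Figure D4:**
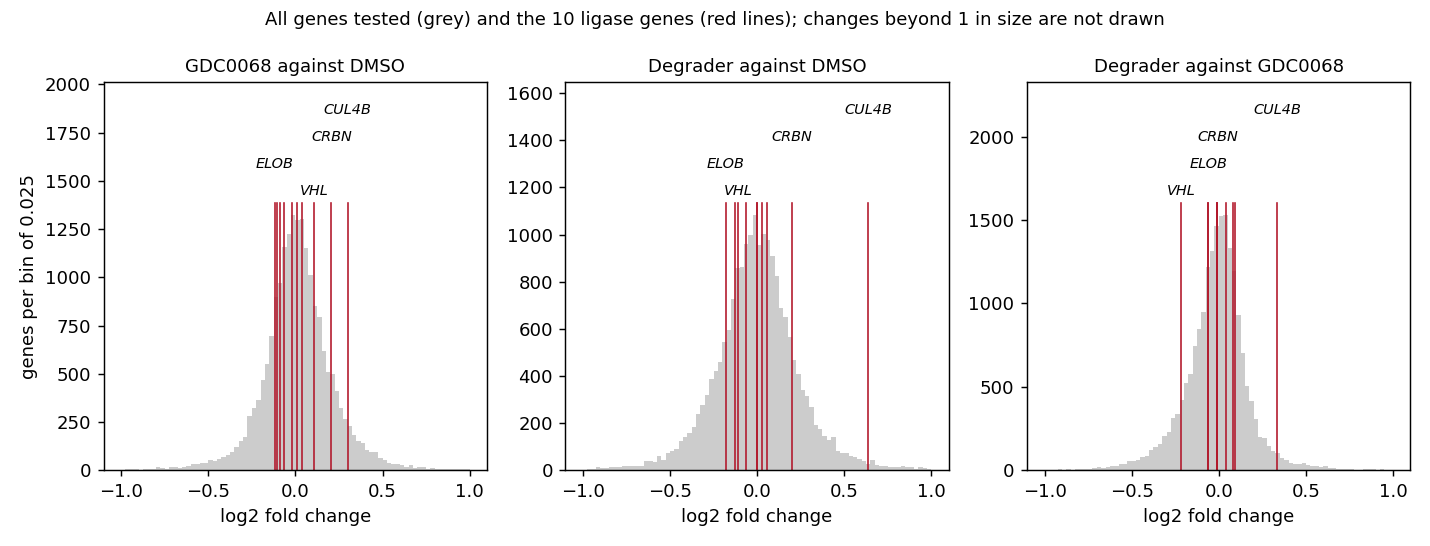
Number of genes (y axis) by log2 fold change (x axis, bins of 0.025) for all genes tested in each contrast, with a red line for each of the 10 ligase genes. Most of the lines stand in the centre of the distribution, and CUL4B lies above 98.5% of all genes under Degrader and above 92.9% under GDC0068.

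The drugs were compared directly at doses that differ, 100 nM Degrader and 500 nM GDC0068. edgeR called none of the 10 genes, against 0.266% of all genes (0.116% higher and 0.151% lower). At an unadjusted p under 0.05 there were 2, VHL and CUL4B, and neither DESeq2 nor limma voom called any. They ranked 873 and 276 by edgeR p among the 19902 genes tested. The share of all genes at that unadjusted level is not given here. With the replicate block both were called by edgeR, against 10.4% of all genes (5.03% higher and 5.35% lower). Of the 10 genes, 4 had Degrader libraries that did not overlap those of GDC0068 (45.0% of all genes). These were 3 higher (22.1%) and 1 lower (22.9%).

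CUL4B was higher under Degrader by 0.34 on the log2 scale (95% interval 0.16 to 0.52, edgeR adjusted p = 0.111; 0.00114 with the replicate block), and by 0.36 and 0.32 in the experiments. Its value was 0.26 without GDC0068 replicate 1 and 0.43 without GDC0068 replicate 2. VHL gave -0.22 (95% interval -0.37 to -0.07, edgeR adjusted p = 0.191; 0.0182 with the replicate block), so that its lower value was under Degrader. The experiments gave -0.31 and -0.12 for VHL, and the value was -0.13 without GDC0068 replicate 1, the library with 48.2 CPM.

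CRBN did not separate the drugs: the log2 difference was -0.01 with a 95% interval from -0.13 to 0.12, so that a difference beyond 0.13 in either direction lies outside it. For the other 7 genes the intervals ran from -0.23 to 0.21 at most. The ratio of VHL counts to CRBN counts was 1.01 and 1.02 in DMSO, 1.00 and 0.900 under GDC0068 and 0.820 and 0.821 under Degrader. It was lowest in both Degrader libraries. As counts of different intervals, these ratios do not give the relative amounts of the proteins. Their difference between arms was not tested.

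The other genes of the pathway were taken from 8 lists written from general knowledge, and 82 of their 83 genes had a row and were tested, HIF3A being the exception. Under Degrader, edgeR called 8 as higher and 5 as lower, which is 15.9% of the 82 against 15.3% of all genes. The median log2 fold change of the 82 was 0.0042, against -0.0014 over all genes. With a DMSO or a Degrader library left out fewer of them were called, and the share of all genes called in those fits is not given here. The replicate block gave 27 (32.9%, against 30.7% of all genes).

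Receptors that share CUL2 with VHL included KLHDC2 and KLHDC3, the 2 largest rises of the 82. Of 12, edgeR called 3 as higher and 1 as lower under Degrader, against 7.39% and 7.88% of all genes, with a median of 0.08. The replicate block called 5 of the 12, against 30.7% of all genes. KLHDC2, which recognises substrates by their terminal glycine, had 67.8 and 60.5 CPM in DMSO, 89.3 and 80.7 CPM under GDC0068 and 95.2 and 90.0 CPM under Degrader. Both drugs lay above DMSO in every library. KLHDC2 rose by 0.53 on the log2 scale under Degrader (SE 0.069, edgeR adjusted p = 7.32e-04). Under GDC0068 it rose by 0.40 (SE 0.069, edgeR adjusted p = 0.0131). The GDC0068 call was lost without DMSO replicate 2 (edgeR adjusted p = 0.0858) or GDC0068 replicate 1 (0.0665).

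KLHDC3, a relative of KLHDC2, rose by 0.47 under Degrader (edgeR adjusted p = 0.00252), from 22.3 and 22.7 CPM to 30.8 and 31.5 CPM. ZER1, a receptor for proteins with an exposed amino-terminal glycine, rose by 0.30 (edgeR adjusted p = 0.00285), from 139 and 138 CPM to 173 and 167 CPM. Both were called in all 14 alternative analyses. LRR1, which acts in the unloading of the replicative helicase, fell by 0.26 under GDC0068 (edgeR adjusted p = 0.0333), from 62.8 and 61.4 CPM to 50.3 and 53.2 CPM. That call was lost without either DMSO library (edgeR adjusted p = 0.186 without replicate 1 and 0.113 without replicate 2) and without either GDC0068 library (0.131 and 0.0787). Under Degrader LRR1, the fourth call of the list and named after its value was seen, fell by 0.19 (edgeR adjusted p = 0.0400), and this call was lost without either DMSO library, without either Degrader library and with DESeq2 (adjusted p = 0.108).

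Receptors that share DDB1 with CRBN numbered 25. Under Degrader edgeR called 5 as higher and 1 as lower, against 7.39% and 7.88% of all genes, with a median of 0.05. With the replicate block it called 10 and 2, against 15.1% and 15.7% of all genes. WDTC1 rose by 0.33 (edgeR adjusted p = 0.00554), from 38.1 and 38.0 CPM to 45.8 and 50.1 CPM, and the call was lost without Degrader replicate 2 (0.0849). DCAF12, a receptor for proteins that end in paired glutamates, rose by 0.29 (edgeR adjusted p = 0.00731), and lost the call without DMSO replicate 1 (0.0695) or Degrader replicate 1 (0.0599). DCAF6 rose by 0.22 (edgeR adjusted p = 0.0210), and lost the call without DMSO replicate 1 (0.171), DMSO replicate 2 (0.0573) or Degrader replicate 2 (0.243). The remaining calls, named here after their values were seen because they are few, were DCAF11 (0.34), DDB2 (0.16), which recognises ultraviolet damage in DNA, and DCAF4 (-0.28), with edgeR adjusted p of 0.0467, 0.0396 and 0.0412. These 3 were not followed through the alternative analyses gene by gene. DESeq2 called 5 of the 25, and its share of all genes called is not given here.

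DTL, which directs CUL4 to replication proteins during S phase, fell by 0.38 under GDC0068 (edgeR adjusted p = 0.0484). It had 86.7 and 92.8 CPM in DMSO, 60.8 and 76.4 CPM under GDC0068 and 72.8 and 83.5 CPM under Degrader, so both drugs lay below DMSO. Under Degrader the change was -0.20 (edgeR adjusted p = 0.181, and 0.00110 with the replicate block). Between the drugs it was 0.19 (edgeR adjusted p = 0.409, and 0.0108 with the block). Without the block only the fall under GDC0068 was called. The call was lost with robust estimation (edgeR adjusted p = 0.125), and its size was -0.23 without GDC0068 replicate 1 (0.195). It was also lost without DMSO replicate 1 (0.153) or DMSO replicate 2 (0.198), with library sizes alone (0.0500) and with a minimum of 1 CPM (0.0502).

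Of 11 neddylation genes, which activate cullins, edgeR called 2 as lower under Degrader (18.2%, against 15.3% of all genes). UBE2F, the NEDD8-conjugating enzyme that serves CUL5, fell by 0.38 (edgeR adjusted p = 0.0143), from 52.4 and 48.3 CPM to 39.7 and 37.9 CPM. DCUN1D4, a co-factor of NEDD8 transfer, fell by 0.21 (edgeR adjusted p = 0.0162). CAND2, the relative of CAND1, fell by 0.41 (edgeR adjusted p = 0.0172), from 23.1 and 20.4 CPM to 17.0 and 15.7 CPM. UBE2F and CAND2 lost the call without DMSO replicate 1 (edgeR adjusted p = 0.118 and 0.154) or Degrader replicate 2 (0.0960 and 0.126). DCUN1D4 lost it without DMSO replicate 1 (0.0733), DMSO replicate 2 (0.0833), Degrader replicate 1 (0.0596) or Degrader replicate 2 (0.119).

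For the 4 lists that follow, the share of all genes called under Degrader was 15.3% by edgeR and 30.7% with the replicate block. An unadjusted edgeR p under 0.05 was reached by at least 5739 of the 19902 genes tested, so unadjusted counts below do not set a list apart. Lists of 7 to 10 genes are too short for 0 calls to set them apart from 15.3%. The COP9 signalosome, which removes NEDD8 from cullins, had 0 of 10 subunit genes called by edgeR under Degrader. At an unadjusted p under 0.05 there were 2, DESeq2 and limma voom called 0, and the replicate block called 2 as lower, GPS1 (-0.25) and COPS6 (-0.34), again named after their values were seen. Of 7 other cullin, RING and adaptor genes 0 were called (0 unadjusted; 0 by DESeq2 and by limma voom). Of 8 partners in ubiquitin transfer, listed as ubiquitin-conjugating partners, 0 were called by edgeR (0 unadjusted, 0 by DESeq2 and by limma voom). The replicate block called 1 of them, the ligase ARIH2, as lower (-0.12, edgeR adjusted p = 0.0401), named after its value was seen. Of 7 genes for VHL substrates and their hydroxylases, edgeR called 0 under Degrader, 4 reached an unadjusted p under 0.05, and DESeq2 and limma voom called 0. With the replicate block EPAS1 (0.14), ARNT (0.14) and HIF1AN (0.14) were called as higher and EGLN3 (-0.27) as lower, in a fit that called 30.7% of all genes. These 4 were named after their values were seen. EPAS1 and ARNT encode subunits of HIF, and HIF1AN and EGLN3 encode hydroxylases that act on it.

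Under GDC0068, edgeR called 1 of the 82 as higher and 2 as lower (KLHDC2, LRR1 and DTL), or 3.66% against 3.58% of all genes. Between the drugs it called 0 of 82, with 10 at an unadjusted p under 0.05 and 0 by DESeq2 and limma voom. The share of all genes at that unadjusted level is not given here. The replicate block called 13 under GDC0068 (15.9%, against 17.8% of all genes) and 11 between the drugs (13.4%, against 10.4%).

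**Figure D5:**
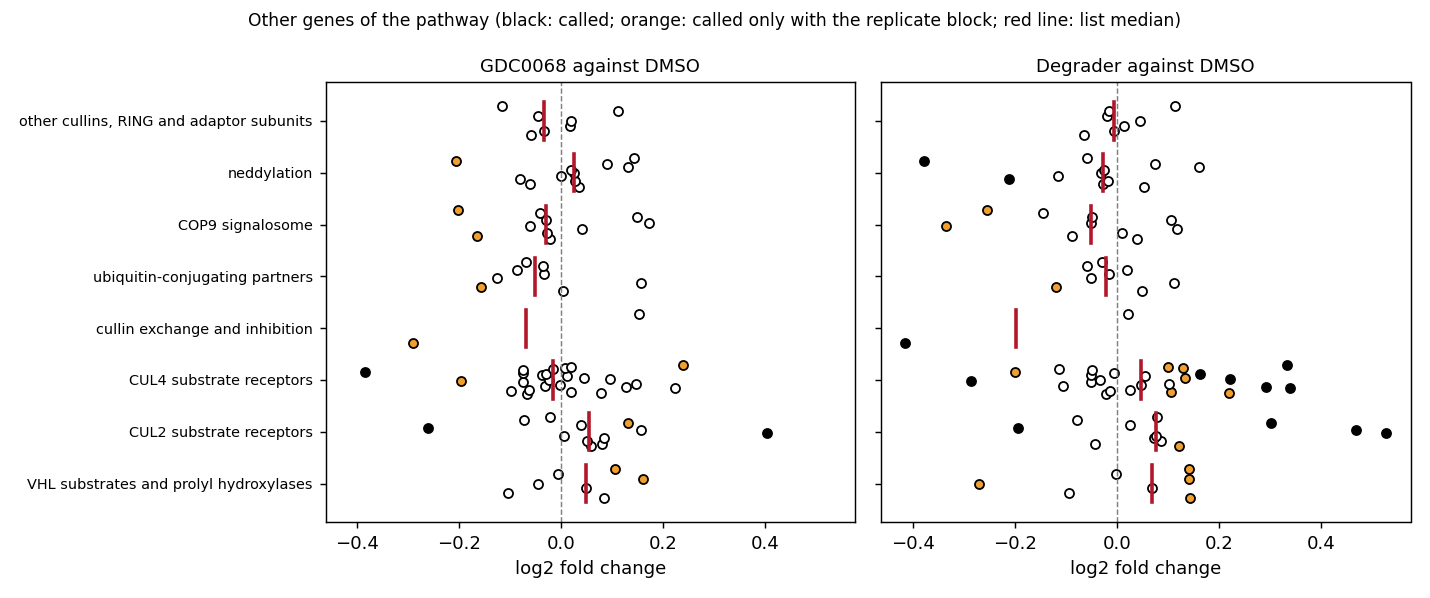
Log2 fold change (x axis) of the 82 other pathway genes by list (y axis) under GDC0068 and Degrader; black points were called by edgeR, orange points were called only with the replicate block, white points were not called, and red lines mark list medians. Black points are 3 under GDC0068 and 13 under Degrader, and the rightmost is KLHDC2 in both panels (0.40 and 0.53).

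The genes whose profile over the 6 libraries was most like those of the receptors were found among 13896 others with a mean of at least 10 CPM. Likeness was the root mean square difference of log2 CPM after centring each gene on its mean. For VHL these were DNAAF2 (0.012), GPR180 (0.019) and SF3B4 (0.019), and none of the 3 was called under Degrader. For CRBN they were AC004951.3 (0.011), STEAP2-AS1 (0.016) and AC053527.2 (0.017), of which AC053527.2 was called by edgeR under Degrader (log2 fold change 0.21, adjusted p = 0.0262). With 6 libraries, such likeness is a description of these profiles only.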

How the data were processed

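The deposited table holds raw counts per gene interval, made by the authors with 1 column per library; whole numbers and unequal totals bear out the unit. Per the submitters' processing notes, cutadapt 1.14, Bowtie 1.2.2, SAMtools 1.3.1, HISAT2 2.2.1 and limma were used and the builds dm3, hg38 and GRCh38 are named, without roles. The counting tool, use of strand, treatment of duplicates and any spike-in are not given in the sources used here. Without a spike-in, changes are relative to the bulk of genes, and without strand, overlapping transcription can enter a count.

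Counts were fitted in R 4.3.3 with edgeR 4.0.16 (filterByExpr at its defaults, min.count 10 and min.total.count 15, TMM factors 0.997 to 1.003, glmQLFit and glmQLFTest) over all 6 libraries, with a term per arm and Benjamini-Hochberg adjustment over 19902 genes. A gene was called at an adjusted p under 0.05. SE is the log2 fold change divided by the root of F, and intervals are at 95%. CPM use TMM-scaled library sizes. Alternatives were DESeq2 1.42.0, limma 3.58.1 voom, other filters and scaling, robust estimation, the 4 libraries compared, each library left out, and the replicate number as a block. The script was tested on simulated data.

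The series describes 2 experiments and the labels number replicates 1 and 2. That these numbers mark the experiments was assumed. Same-numbered libraries deviated together from their arm means (correlation across 13897 genes 0.420 to 0.494), so blocked values stand beside results whose call they change. With 2 libraries per arm no permutation test between arms can pass 0.05. The members and lists were chosen with earlier results of these data known. Named genes are all members, up to 3 called genes per list and contrast with the smallest adjusted p, and the 3 genes nearest VHL and CRBN. Other genes are named only where the text says that they were chosen after their values were seen, or as neighbours of members and cell markers.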

Additional observations from a re-analysis of the deposited data

How the results depend on the processing

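Under Degrader, 2 of the 10 ligase genes were called by edgeR. DESeq2 called 1, CUL4B. With a library left out, the log2 fold change ran from 0.57 to 0.70 for CUL4B and from 0.18 to 0.20 for CRBN. The replicate block gave 2 calls where there were 0 under GDC0068 (CRBN and CUL4B) and 2 where there were 0 between the drugs (VHL and CUL4B). For the other pathway genes the block gave 27 in place of 13 under Degrader, 13 in place of 3 under GDC0068 and 11 in place of 0 between the drugs. Leaving out a library gave 4 to 15, 0 to 3 and 0 to 0 calls. The block changed the calls of ELOB, CRBN, CUL4B and VHL given above and no other call among the 10. The cause of these shifts was not tested, beyond the loss of a sample when a library is left out.

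Signs turned only in values near 0. ELOC under Degrader was -0.0018 with library sizes alone and -0.0021 with a minimum of 1 CPM, against 0.0015. With a library left out, log2 fold changes spanned 0 for ELOC (-0.017 to 0.013) and RBX1 (-0.025 to 0.014) under Degrader. They did so for CAND1 (-0.071 to 0.016) and RBX1 (-0.054 to 0.058) under GDC0068. Between the drugs this held for ELOB (-0.16 to 0.050), RBX1 (-0.059 to 0.053), CRBN (-0.017 to 0.0051) and DDB1 (-0.028 to 0.017). A lone library was assumed to vary like the other arms.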
